A study of Homo sapiens with 4 samples.

Results

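Of 10 genes of iron storage, uptake, export, sensing and heme breakdown, 4 were called higher and 4 lower in bladder cancer cells after enfortumab vedotin (EV). Among all tested genes, 34.5% were called higher and 31.5% lower, so such calls were common and not particular to these genes. FTL, NCOA4, TFRC and HMOX1 rose to between 1.94 and 2.23 times the control level. SLC11A2, ACO1 and FTH1 fell, and the control level was between 1.21 and 2.25 times the EV level. IREB2 was called lower too, but its direction turned with a correction for exon length and GC content. SLC40A1 and STEAP3 did not pass the test. The 10 genes were chosen by name as genes of iron and heme handling, from the 61860 genes of a raw count table, and all 10 passed the filter on low counts.

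RNA-seq of total RNA was carried out on cells labelled HT1376, an established line of bladder cancer cells grown as 1 line with no genetic change named in the labels. The control group was treated for 48 h with WFI, a control label that the sources used here do not spell out (n = 2). The other group was treated for 48 h with 1 nM EV, an antibody-drug conjugate that carries a microtubule poison to cells with nectin-4 on their surface (n = 2). Both groups were grown in the same serum-supplemented medium, and no label names separate cultures for the replicates. The p-values therefore reflect the variation among these 4 libraries, and that variation may be technical.

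Totals ran from 19368791 to 20727175 counts per sample. Genes with any count numbered 26258 and 26587 in WFI and 29456 and 28770 in EV. The replicates of each group differed by more than counting noise, with a chi-square per degree of freedom of 2.25 for WFI and 4.72 for EV. Of 17465 genes tested with edgeR, 66.0% were called changed at an adjusted p below 0.05, 34.5% higher and 31.5% lower in EV, and the median log2 fold change was 0.02. The CPM of the groups did not overlap for 82.8% of tested genes. A called gene or a pair of groups that do not overlap was therefore the usual outcome in this comparison. Of 19 urothelial and epithelial markers, KRT8, KRT7 and KRT18 were abundant and 10 genes rose in EV, with a summed level of 1612 to 1629.5 CPM in WFI and 3462 to 3501 CPM in EV. KRT20 had 0 counts in all samples, and CDH1 had 0 and 1 counts in WFI and 9 and 7 in EV. KRT5, TP63, GRHL2, KRT13, UPK1B and UPK3A had 0 counts in both controls. EPCAM had 3 and 6 counts in WFI, KRT19 1 and 6, UPK1A 1 and 2 and UPK2 5 and 5. Most of the list, defining markers included, was thus absent or nearly so in WFI, and rises such as those of KRT5 and TP63 started from 0. The name bladder cancer cells therefore rests on the labels. The part of these differences in the results below was not tested. In bulk RNA, fewer cells of a kind and less RNA per cell cannot be told apart.

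Cells take up transferrin-bound iron through the transferrin receptor TFRC, reduce it in the endosome with STEAP3 and pass it to the cytosol through SLC11A2. Iron that is not used is stored in ferritin, a shell of FTH1 and FTL chains, is released when NCOA4 carries ferritin to the lysosome, and leaves the cell through ferroportin, the product of SLC40A1. The iron regulatory proteins, encoded by ACO1 and IREB2, bind a hairpin called the iron-responsive element (IRE) in iron-poor cells. An IRE in the 5′ UTR then blocks translation, as in the ferritin and ferroportin mRNAs, while IREs in the 3′ UTR of TFRC mRNA protect it from decay. HMOX1 breaks down heme and frees its iron, and the repressor BACH1 and the activator NRF2 act on its promoter and on the ferritin genes. Proliferating tumour cells are known for a high demand for iron and abundant TFRC.

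The hairpins are shown because they are the sequence feature by which these mRNAs are tied to the same sensors. GENCODE release 29 transcripts of protein-coding genes were searched on the sense strand for an unpaired C, 5 bases that pair across a loop of 6, and a lower stem of 5 bases with at least 4 pairs, where A-T, G-C and G-T counted as pairs. The loop had to read CAGTGN or CAGAGN. The capitals mark the loop, all sequences run 5′ to 3′ on the strand of the mRNA, and positions are on hg38. The ferritin and ferroportin hairpins lie in the 5′ UTR, at chr11:61967575-61967601 (minus strand), chr19:48965336-48965362 (plus strand) and chr2:189580662-189580688 (minus strand).
FTH1: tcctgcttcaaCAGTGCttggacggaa
FTL: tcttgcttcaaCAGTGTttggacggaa
SLC40A1: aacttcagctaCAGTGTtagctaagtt

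The FTH1 and FTL hairpins were identical at 25 of 27 bases. They differed by C3T and C17T, with the FTH1 base first and positions counted from 1 at the 5′ end of the printed stretch. The 3′ UTR of TFRC held 5 hairpins, on the minus strand at chr3:196051030-196051056, chr3:196050980-196051006, chr3:196050576-196050602, chr3:196050511-196050537 and chr3:196050464-196050490, printed here in that order. All 5 had a lower stem with 5 pairs.
TFRC, the first: tttatcagtgaCAGAGTtcactataaa
TFRC, the second: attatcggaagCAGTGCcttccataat
TFRC, the third: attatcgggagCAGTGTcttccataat
TFRC, the fourth: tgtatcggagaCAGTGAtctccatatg
TFRC, the fifth: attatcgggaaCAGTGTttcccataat

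With 1 extra base allowed in the 3′ arm, SLC11A2 had a hairpin in the 3′ UTR at chr12:50988269-50988296 (minus strand). STEAP3 had a match to the stricter pattern in its 3′ UTR at chr2:119263772-119263798 (plus strand).
SLC11A2: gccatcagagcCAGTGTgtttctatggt
STEAP3: caaggctcttgCAGAGCtagggctctg

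In all, 6 of the 10 genes had a match to either pattern, against 153 of 19659 protein-coding genes (0.778%). SLC11A2 matched only with the extra base, and 49 protein-coding genes (0.249%) matched the stricter pattern. The 10 genes include those named above as known for an IRE, so a high share was fixed in advance and nothing is concluded from it. The match lay in 7 of 8 protein-coding transcripts of FTH1, the 1 of FTL, 3 of 4 of TFRC, 1 of 5 of SLC40A1, 5 of 18 of SLC11A2 and 2 of 4 of STEAP3. No transcript of HMOX1, IREB2, ACO1 or NCOA4 matched, which says only that these letters are not in those transcripts. A match is a description of sequence, not a measured site. Counts per gene do not separate transcripts with the hairpin from those without it. Neither translation nor protein was measured in these samples.

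Storage genes moved in opposite directions. FTH1 encodes the ferroxidase chain of ferritin and lies at chr11:61959718-61967660 (ENSG00000167996). Its level was 1754 and 1761 CPM (counts scaled to library size with TMM factors) in the WFI samples and 1438 and 1471 CPM in the EV samples. Both EV samples were below both controls. FTH1 fell from 1757 ± 4.73 to 1454 ± 23.7 CPM (SD, n = 2 per group), a log2 fold change of -0.27 with a standard error of 0.02 (edgeR, adjusted p = 2.40e-06). With a correction for exon length and GC content the value was -0.75, and the direction was the same.

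FTL encodes the light chain, which supports the mineral core of ferritin, and lies at chr19:48965301-48966878 (ENSG00000087086). It stood at 783 and 824 CPM in the controls and at 1516 and 1608 CPM in EV, with no overlap of the groups. FTL rose from 803 ± 28.8 to 1562 ± 65.0 CPM (SD, n = 2), a log2 fold change of 0.96 with a standard error of 0.04 (edgeR, adjusted p = 1.45e-09). With the length and GC correction the rise was 0.28 on the log2 scale (edgeR, adjusted p = 5.27e-06). FTH1 went from the 18th to the 59th and FTL from the 94th to the 52nd most abundant gene by mean CPM.

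The 2 ferritin chains thus exchanged their order. There were 2.24 and 2.14 FTH1 counts for each FTL count in the controls, and 0.948 and 0.915 in EV. The mean ratio was 2.19 ± 0.0727 in WFI and 0.932 ± 0.0236 in EV (SD, n = 2), 2.35 times lower. FTH1 made up 69.1% and 68.1% of the ferritin counts in WFI and 48.7% and 47.8% in EV. The summed level of both chains moved less, from 2537 and 2584 CPM to 2954 and 3079 CPM. The log2 fold change of FTL exceeded that of FTH1 by 1.23, by 1.2 to 1.27 without any single sample, and by 1.03 with the length and GC correction. This ratio does not depend on the scaling between samples. With 2 samples a group an exact permutation test cannot go below a two-sided p of 0.33, so no test of the ratio was made.

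Both ferritin genes have processed copies elsewhere in the genome, which the counting could have mixed with the parent gene. The 25 copies of FTH1 in the table, of which 18 had counts, summed to between 223 and 394 counts per sample, 0.853% to 1.08% of the FTH1 counts. For FTL, 5 of 16 copies had counts, and the sums of 20 to 45 were 0.0979% to 0.167% of the FTL counts. The level of FTH1 could also share reads with BEST1 on the opposite strand, which had 31 and 42 counts in WFI and 75 and 127 in EV. These counts are small beside the change in FTH1, from 36227 and 36835 to 26155 and 28487 counts, but how many reads of FTH1 itself were assigned to copies was not tested.

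NCOA4, the receptor that delivers ferritin to autophagosomes, lies at chr10:46005088-46030714 (ENSG00000266412). It was at 173 and 169.9 CPM in the controls and at 371 and 358 CPM in EV. NCOA4 rose from 171 ± 1.96 to 365 ± 9.32 CPM (SD, n = 2), 2.13 times, with a log2 fold change of 1.09 and a standard error of 0.04 (edgeR, adjusted p = 9.24e-10). The groups did not overlap. Its 4 listed copies held 1 or 2 counts per sample in all.

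**Figure D1:**
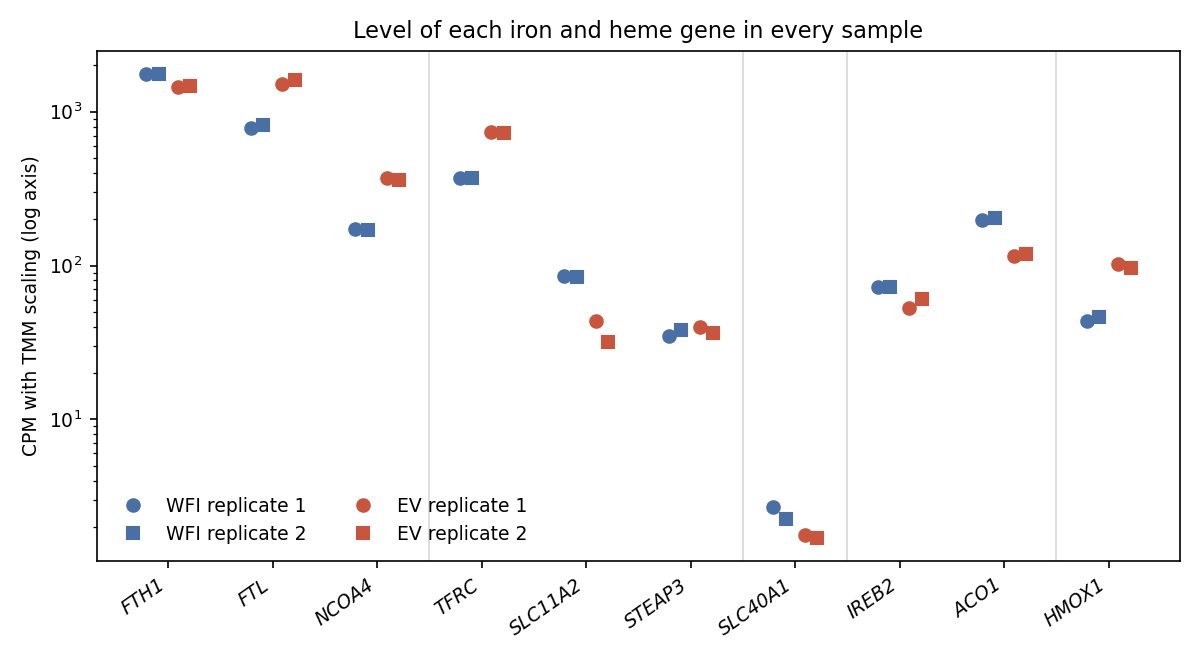
Level of each of the 10 genes in every sample, in CPM with TMM scaling on a log axis, ordered by role as storage, uptake, export, sensing and heme breakdown. Blue points are WFI and red points EV (circles replicate 1, squares replicate 2). The red points lie clear above the blue ones for FTL, NCOA4, TFRC and HMOX1, clear below them for FTH1, SLC11A2, SLC40A1, IREB2 and ACO1, and overlap them for STEAP3.

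Among the uptake genes, TFRC rose and SLC11A2 fell. TFRC, the receptor that internalises transferrin, lies at chr3:196027183-196082189 (ENSG00000072274). It stood at 373 and 370.4 CPM in WFI and at 741 and 729 CPM in EV. TFRC rose from 372 ± 1.98 to 735 ± 8.58 CPM (SD, n = 2), 1.98 times, with a log2 fold change of 0.98 and a standard error of 0.03 (edgeR, adjusted p = 3.13e-10). The replicates lay close together and the groups far apart. Its rank by mean CPM went from 356 to 193. Set against FTH1, whose mRNA the same sensors act on through the 5′ hairpin printed above, TFRC had 0.213 and 0.210 counts for each FTH1 count in WFI and 0.515 and 0.495 in EV. The mean of this ratio went from 0.212 ± 0.00170 to 0.505 ± 0.0141 (SD, n = 2), 2.39 times. The log2 fold change of TFRC exceeded that of FTH1 by 1.26, and by 2.0 with the length and GC correction.

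SLC11A2, the divalent metal transporter that carries ferrous iron across membranes, lies at chr12:50979401-51028566 (ENSG00000110911). It was at 86.0 and 83.9 CPM in WFI and at 43.8 and 31.8 CPM in EV. The EV replicates stood further apart than the controls, yet both were far below them. SLC11A2 fell from 84.9 ± 1.49 to 37.8 ± 8.52 CPM (SD, n = 2), a log2 fold change of -1.17 with a standard error of 0.11 (edgeR, adjusted p = 4.91e-06). Its transcripts end with or without the 3′ hairpin, and which of them fell cannot be told from counts per gene.

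STEAP3, the ferrireductase of the transferrin endosome, lies at chr2:119223831-119265652 (ENSG00000115107). Its levels overlapped, at 34.8 and 37.9 CPM in WFI and 39.8 and 36.3 CPM in EV. The means were 36.4 ± 2.19 and 38.1 ± 2.47 CPM (SD, n = 2). The log2 fold change was 0.06 with a 95% interval from -0.14 to 0.27 and did not pass the test (edgeR, adjusted p = 0.551). With the length and GC correction it was called lower, at -0.3 (edgeR, adjusted p = 0.0122). An antisense gene, STEAP3-AS1, had 6 and 21 counts in WFI and 1 and 5 in EV, against 703 to 793 counts for STEAP3.

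The export gene had the lowest level of the 10 genes in both groups. SLC40A1, which encodes ferroportin, the cellular iron exporter, lies at chr2:189560579-189583758 (ENSG00000138449). It had 56 and 47 counts in WFI and 32 and 33 in EV, or 2.71 and 2.25 against 1.76 and 1.70 CPM. The groups did not overlap. The means were 2.48 ± 0.329 and 1.73 ± 0.0387 CPM (SD, n = 2), but the log2 fold change of -0.52 had a 95% interval from -1.28 to 0.25 and did not pass the test (edgeR, adjusted p = 0.213).

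Of the sensor genes, ACO1 fell, and the call for IREB2 depended on a correction for length and GC content. ACO1, which encodes iron regulatory protein 1, an aconitase when it holds an iron-sulfur cluster, lies at chr9:32384603-32454769 (ENSG00000122729). It stood at 197 and 203 CPM in WFI and at 116 and 118 CPM in EV, with no overlap. ACO1 fell from 200.2 ± 4.17 to 117 ± 1.33 CPM (SD, n = 2), a log2 fold change of -0.78 with a standard error of 0.04 (edgeR, adjusted p = 4.59e-08).

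IREB2 encodes iron regulatory protein 2, whose amount is set by iron-dependent degradation of the protein, and lies at chr15:78437431-78501456 (ENSG00000136381). It was at 72.8 and 72.1 CPM in WFI and at 53.0 and 60.8 CPM in EV. The mean of IREB2 was 72.4 ± 0.487 CPM in WFI and 56.9 ± 5.48 CPM in EV (SD, n = 2), a log2 fold change of -0.35 with a standard error of 0.07 (edgeR, adjusted p = 0.00175). This direction turned with the length and GC correction, which gave 0.21 (edgeR, adjusted p = 0.0237), so the direction of IREB2 is not settled by these data. There were 0.369 and 0.355 IREB2 counts for each ACO1 count in WFI and 0.458 and 0.517 in EV, and the mean ratio was 0.362 ± 0.00997 in WFI and 0.487 ± 0.0413 in EV (SD, n = 2), 1.35 times higher. The log2 fold change of IREB2 exceeded that of ACO1 by 0.43, and by 0.88 with the correction.

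HMOX1, the inducible heme oxygenase, lies at chr22:35380361-35394214 (ENSG00000100292). It was at 43.3 and 46.5 CPM in the controls and at 103 and 96.6 CPM in EV, without overlap. HMOX1 rose from 44.9 ± 2.25 to 99.9 ± 4.63 CPM (SD, n = 2), 2.23 times, with a log2 fold change of 1.15 and a standard error of 0.07 (edgeR, adjusted p = 5.87e-08). With the length and GC correction the rise was 0.58 (edgeR, adjusted p = 7.90e-06). HMOX2, its constitutive relative, had 0 counts in 3 samples and 2 counts in EV replicate 1. Its gene overlaps NMRAL1 on the other strand, which had 1 and 1 counts in WFI and 0 and 1 in EV. Whether the counting dropped reads shared by these genes was not tested. These counts therefore do not show that HMOX2 was silent. HMOX1 is also abundant in macrophages. The 10 macrophage markers listed summed to 1.69 and 2.92 CPM in WFI and to 13.2 and 13.1 CPM in EV, 4 of them rose, AIF1 had 0 counts in all samples and PTPRC had 1 to 9 counts. Their part in the HMOX1 result was not tested.

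**Figure D2:**
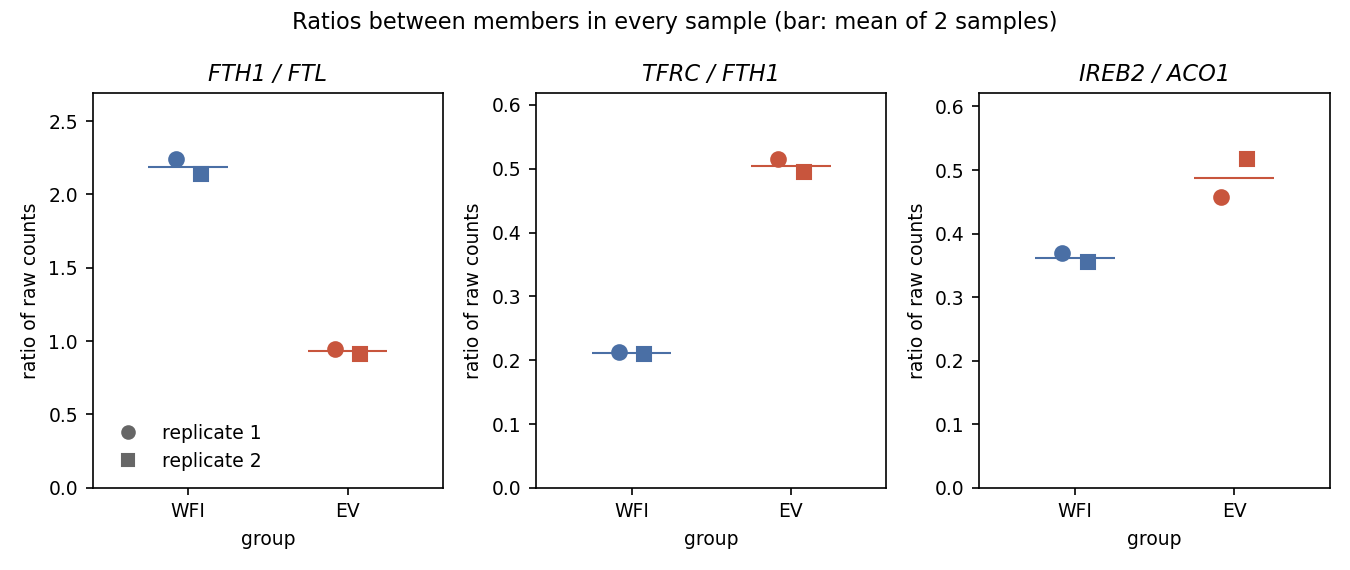
Ratios of raw counts between pairs of the genes in every sample, on axes that start at 0, with circles for replicate 1, squares for replicate 2 and a bar at the mean of 2 samples. FTH1 over FTL goes from 2.19 to 0.932, TFRC over FTH1 from 0.212 to 0.505 and IREB2 over ACO1 from 0.362 to 0.487 between WFI and EV.

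Across the 10 genes, 4 were called higher and 4 lower, against 34.5% and 31.5% of all tested genes, and the median log2 fold change was -0.1 against 0.02. For 9 of the 10, all but STEAP3, the groups did not overlap, against 82.8% of all tested genes. The share called, 8 of 10, stands beside 66.0% of all tested genes, and nothing particular to iron genes is read from it. With a minimum absolute log2 fold change of 1, NCOA4 and HMOX1 were left among the rises and SLC11A2 among the falls, where 30.8% of all tested genes were called, 17.5% higher and 13.3% lower. Single changes sat well inside the spread of all genes, with SLC11A2 at the 11.8th and HMOX1 at the 83.3rd percentile of the log2 fold changes tested. The length and GC correction also lowered the median of all tested genes to -0.13 and moved the calls to 64.9% of genes, 27.9% higher and 36.9% lower, and those of the 10 genes to 5 higher and 4 lower.

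**Figure D3:**
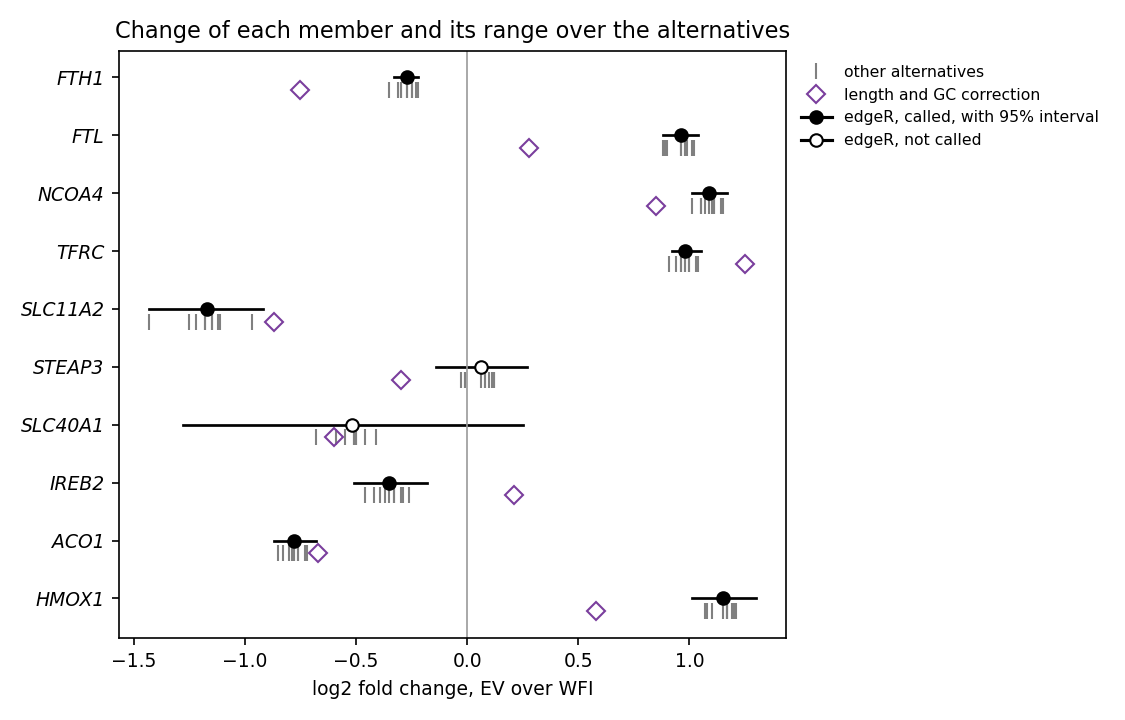
Log2 fold change of each gene in EV over WFI by edgeR, with 95% intervals as horizontal lines (filled points called, open points not called), small ticks for the other alternatives and diamonds for the length and GC correction. IREB2 and STEAP3 have their diamond on the other side of 0 from their point, at 0.21 and -0.3, and FTH1, FTL and HMOX1 have theirs well to the left.

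Levels of different genes were compared as CPM per kb of the main transcript. In WFI the order of the mean levels was FTH1 (1429.9), FTL (915), NCOA4 (74.3), TFRC (72.7), ACO1 (26.8), HMOX1 (24.6), SLC11A2 (20.4), IREB2 (11.4), STEAP3 (9.29) and SLC40A1 (0.720), all in CPM per kb. No neighbours in this order had overlapping samples, although NCOA4 and TFRC differed by 73.7 against 73.0 at their closest. In EV the order was FTL (1779), FTH1 (1183), NCOA4 (158), TFRC (144), HMOX1 (54.8), ACO1 (15.6), STEAP3 (9.72), SLC11A2 (9.07), IREB2 (8.96) and SLC40A1 (0.503). There STEAP3, SLC11A2 and IREB2 overlapped and have no order beyond their spread. In both groups ferritin chains stood far above every other gene, and ferroportin far below.

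For 9 of the 10 genes, the gene outside the iron lists with the most similar pattern was found by the Euclidean distance between log2 CPM centred on each gene's mean, over the 4 samples and 11054 candidates. FTH1 was nearest to ELK1 at a distance of 0.0075. ACO1 was nearest to TMEM67 (0.011), TFRC to CRELD2 (0.015) and NCOA4 to NDUFB10 (0.016). HMOX1 was nearest to RPS7 (0.024), STEAP3 to UQCC4 (0.024), FTL to EZR (0.029), SLC11A2 to ZNF35 (0.034) and SLC40A1 to SPRED3 (0.067). EZR, for example, stood at 293 and 303 CPM in WFI and at 560.2 and 585 CPM in EV. With 4 samples in 2 groups these distances are a description only.

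The rest of the pathway held calls in both directions. Of 104 further genes of iron, heme and iron-sulfur handling, 97 were tested, 42 were called higher, 29 lower and 26 neither, with a median log2 fold change of 0.14 against 0.02 for all tested genes. The calls were 73.2% of the 97 (43.3% higher and 29.9% lower), against 66.0% of all tested genes (34.5% and 31.5%), and the counts of each list below stand beside the same background. Of 14 genes of iron entry, reduction and export outside the 10, 12 were tested, 4 rose and 5 fell, with a median of -0.09. Without either WFI replicate 1 or WFI replicate 2, 1 of these genes was called higher. SLC39A14, a transporter that also carries iron not bound to transferrin, fell from 267 ± 3.10 to 187 ± 1.03 CPM. HEPHL1, a ferroxidase of the ceruloplasmin family, fell from 26.2 ± 0.646 to 8.33 ± 0.273 CPM. The ferrireductase STEAP2 fell from 23.2 ± 0.925 to 11.2 ± 0.194 CPM (SD, n = 2 for each; edgeR, adjusted p from 4.33e-07 to 1.55e-05), with a log2 fold change of -1.05, or -0.5 with the length and GC correction. TFR2, the second transferrin receptor, had 0 and 2 counts in WFI and 39 and 46 in EV. The ratio was 47.0, with a 95% interval of 12.6 to 395 for counting error. TFR2 is 1 of the 4 rises, but it passed the count filter through the EV samples alone, so no other call was open to it.

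Ferritin partners and chaperones outside the 10 were few. Of 6 listed, 4 were tested, 2 rose and 1 fell, with a median of 0.02. Without EV replicate 1 there was 1 rise, and without EV replicate 2 there were 2 falls. HERC2, a ubiquitin ligase that acts on NCOA4 and whose gene has near-identical partial copies that could share its reads, fell from 41.9 ± 1.43 to 10.1 ± 2.29 CPM (SD, n = 2), a log2 fold change of -2.05 (edgeR, adjusted p = 2.22e-07). PCBP2, an iron chaperone, rose from 157 ± 2.11 to 223 ± 0.704 CPM, a log2 fold change of 0.5 (edgeR, adjusted p = 7.54e-07). GLRX3 rose by 0.31 (edgeR, adjusted p = 0.00863), a call lost without EV replicate 1, where the value was 0.15 (edgeR, adjusted p = 0.0605). FTMT, mitochondrial ferritin, had 0 counts in all samples.

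Of 12 genes of iron sensing and the hepcidin axis outside the 10, 11 were tested, 1 rose and 5 fell, with a median of -0.23. Without WFI replicate 1, WFI replicate 2 or EV replicate 1 there were 3 falls, and without EV replicate 2 there were 2 rises. BMPR1A, a receptor of the bone morphogenetic proteins that drive hepcidin, fell from 82.3 ± 0.338 to 37.3 ± 6.20 CPM, a log2 fold change of -1.14, or -0.69 with the length and GC correction. NEO1, a partner of hemojuvelin, fell from 138 ± 1.57 to 95.7 ± 0.338 CPM (SD, n = 2; edgeR, adjusted p = 2.18e-06). HAMP, the gene for hepcidin, the peptide hormone that closes ferroportin, rose from 0 counts in both controls to 65 and 82 counts in EV, or 3.57 and 4.24 CPM. Against a floor of 3 counts per library, or 0.144 CPM, HAMP was at least 27.1-fold higher. HAMP passed the count filter through the EV samples alone, so a rise was the only call open to it. It is the 1 rise counted for this list, and nothing is concluded from that call. HAMP is a liver gene and 1 of 6 hepatocyte markers listed, of which ALB also rose, from 0 and 1 to 62 and 34 counts. SERPINA1, the most abundant of them, had 279 and 216 counts in WFI and 198 and 218 in EV and was not called. TF was not called either, and APOA1 and TTR were not tested. The hepatocyte list summed to 13.8 and 11.0 CPM in WFI and 19.2 and 18.5 CPM in EV, with no marker at 0 in all samples and TTR at 0 counts in both controls. Their part in the HAMP result was not tested.

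All 13 genes of heme synthesis were tested, 8 rose, 1 fell and 4 were not called, with a median of 0.48 against 0.02 for all genes. The share called, 69.2%, was near the 66.0% of all tested genes, with 61.5% higher and 7.69% lower against 34.5% and 31.5%. ALAS1, the rate-limiting enzyme outside red cells, rose from 70.1 ± 0.637 to 110.4 ± 0.179 CPM (SD, n = 2), a log2 fold change of 0.66 (edgeR, adjusted p = 9.29e-07) and 0.19 with the length and GC correction (edgeR, adjusted p = 0.00813). TMEM14C, a mitochondrial porphyrin transporter, rose by 0.71 on the log2 scale (edgeR, adjusted p = 1.68e-07) and by 0.17 with that correction (edgeR, adjusted p = 0.00733). The correction left 6 genes higher and 2 lower.

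ALAS2, the red cell form with an IRE of its own, had 2 and 0 counts in WFI and 15 and 30 in EV. The ratio was 24.9, with a 95% interval of 6.51 to 212 for counting error. ALAS2 is 1 of the 8 rises of heme synthesis, but only the EV samples carried it past the count filter, so no other call was open to it. It overlaps APEX2, which had 819 to 1045 counts, on the other strand. The 10 erythroid markers, ALAS2 among them, summed to 0.242 and 0.143 CPM in WFI and 2.80 and 5.89 CPM in EV. Of these markers 2 rose, and HBG1 and EPB42 had 0 counts in all samples. Their part in the ALAS2 result was not tested.

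Heme breakdown and transport was mixed, with 5 higher and 5 lower of 14 tested genes outside the 10 (15 listed) and a median of -0.21. LRP1, a large endocytic receptor that takes up the heme-hemopexin complex, fell from 702 ± 19.2 to 226 ± 2.21 CPM (SD, n = 2), a log2 fold change of -1.64 (edgeR, adjusted p = 1.56e-11). BACH1, the heme-binding repressor of HMOX1, fell from 139 ± 2.65 to 57.6 ± 2.16 CPM (SD, n = 2), a log2 fold change of -1.27 (edgeR, adjusted p = 5.40e-09). PGRMC1, a heme-binding membrane protein, rose by 0.66 (edgeR, adjusted p = 7.72e-08) and by 0.32 with the length and GC correction.

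The genes around the regulation of HMOX1 by NRF2 and BACH1 also split. All 15 were tested, 6 rose and 8 fell, with a median of -0.21. GCLC, the catalytic subunit of glutathione synthesis, rose from 16.7 ± 0.188 to 78.7 ± 4.67 CPM (SD, n = 2), a log2 fold change of 2.23 (edgeR, adjusted p = 1.76e-09). TXNRD1, thioredoxin reductase, fell from 1173 ± 8.81 to 628 ± 9.31 CPM (SD, n = 2), a log2 fold change of -0.9 (edgeR, adjusted p = 3.14e-10). NFE2L2, which encodes NRF2 and is named here after its values were seen, fell from a mean of 122 to 94.6 CPM, a log2 fold change of -0.37 (edgeR, adjusted p = 5.63e-05). HMOX1 and GCLC thus rose while TXNRD1, another NRF2 target, fell.

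Mitochondrial iron import and iron-sulfur assembly had 12 higher and 4 lower of 20 tested genes (21 listed), with a median of 0.34. The 80.0% called and the 60.0% higher stand beside 66.0% and 34.5% of all tested genes. Without WFI replicate 2, 2 genes were called lower. SLC25A37, mitoferrin of the mitochondrial inner membrane, fell from 239.9 ± 11.0 to 78.4 ± 2.85 CPM (SD, n = 2), a log2 fold change of -1.61 (edgeR, adjusted p = 4.15e-10). NFS1, the cysteine desulfurase that supplies sulfur, rose from 26.4 ± 1.91 to 56.7 ± 5.19 CPM (SD, n = 2), a log2 fold change of 1.1 (edgeR, adjusted p = 1.76e-06). GLRX5, a cluster carrier, rose by 1.09 (edgeR, adjusted p = 4.02e-08) and by 0.6 with the length and GC correction. Of the 9 cytosolic assembly genes 4 rose and 1 fell, with a median of 0.53, while 2 were called lower without EV replicate 1 and 4 with the length and GC correction. The fall with all samples was that of MMS19, which helps load clusters onto DNA repair enzymes, from 149 ± 0.0948 to 95.9 ± 2.21 CPM (SD, n = 2; edgeR, adjusted p = 5.03e-07). NUBP2, a scaffold protein, rose by 0.67 (0.26 with the correction). CIAO2B rose by 0.56 (edgeR, adjusted p = 7.56e-06), but the correction gave -0.11 (edgeR, adjusted p = 0.121), so its call and its direction depend on it.

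Zinc transporters, some of which also carry iron, were listed beside SLC11A2, whose product is a carrier of several metals. Of 15 listed, 14 were tested, 4 rose and 5 fell, with a median of -0.05, and without WFI replicate 2 there were 3 falls. SLC30A1, the zinc exporter of the plasma membrane, rose from 65.6 ± 1.11 to 277 ± 6.82 CPM (SD, n = 2), a log2 fold change of 2.08 (edgeR, adjusted p = 2.06e-11). SLC39A10, a zinc importer, fell by 1.23 (edgeR, adjusted p = 2.96e-08). SLC39A4, another importer, rose by 1.17 (edgeR, adjusted p = 3.79e-07) and by 0.76 with the length and GC correction.

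**Figure D4:**
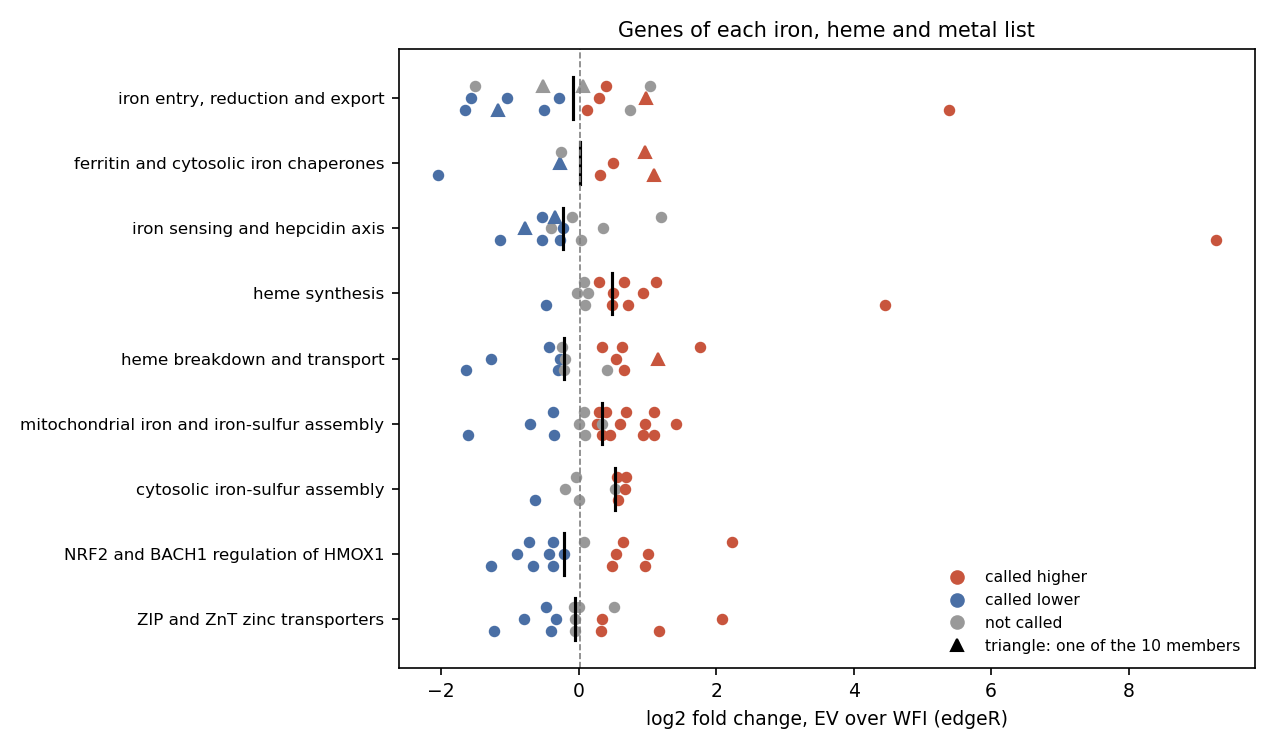
Log2 fold change in EV over WFI by edgeR of every tested gene of each iron, heme and metal list (red called higher, blue called lower, grey not called, triangles for the 10 genes), with a black bar at the median of the genes outside the 10. Every list holds points on both sides of 0. The point at 9.27 is HAMP, whose fitted value rests on 0 control counts and is no bound, and the points at 5.38 and 4.46 are TFR2 and ALAS2, each with 2 counts over both controls.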

How the data were processed

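RNA-seq was available for 2 WFI and 2 EV samples of HT1376 cells. The deposited table holds raw counts per gene, whole numbers with no normalization by the authors. The genome build was hg38, per the submitters' processing notes. The library kit was directional, per the labels' protocols. Not given in the sources used here are the annotation, the aligner, and the counter with its strand option. Of 61860 gene identifiers, 61757 matched a symbol. The control label is not expanded in the labels.

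Counts were tested with edgeR 4.0.16 in R 4.3.3 over the whole table, with TMM scaling, filterByExpr (17465 genes kept), the quasi-likelihood test with the group as the only term, and Benjamini-Hochberg adjustment at 0.05. The standard error is the absolute log2 fold change divided by the square root of F, and intervals are 95%. On simulated counts, 64% of genes changed by 0.5 on the log2 scale, 94% of those changed by 1 and 100% of those changed by 2 or 4 were recovered. Of the calls there, 1.65% were false, over 16108 genes. The simulation changed 200 genes and gave every gene the same dispersion, while 66.0% of tested genes were called in these data. Its rates therefore do not carry over to the comparison of EV with WFI. Depth was 19368791 to 20727175 counts per sample. Intervals and floors on low counts cover counting error only.

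Tests were repeated without the count filter, with 50 counts required in 2 samples, with RLE or upper quartile scaling, with DESeq2 1.42.0, with the replicate number as a block, without each sample in turn, with an absolute log2 fold change of at least 1, and with a correction for length and GC content (offsets fitted across 17073 genes with GENCODE 29 values). The length in that correction is that of all exons of a gene merged, and the GC content is that of the main transcript. The offsets were fitted to the deviations of each sample, treatment included. They can therefore also remove treatment change that follows length or GC content. Length per kb is that of the main transcript in GENCODE 29. The genes and lists were chosen with earlier results of these data known. The text names all 10 genes, the 3 genes with the smallest adjusted p outside the 10 in every other list, genes near 0 that define a list, and the gene nearest in pattern to each of the 10. Of the genes this rule names, 2 are not reported here.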

Additional observations from a re-analysis of the deposited data

How the results depend on the processing

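Of the 10 genes, 4 were higher and 4 lower under RLE and upper quartile scaling, DESeq2, the other count filters, the replicate block and without any 1 sample (4 to 4 in each direction). Requiring an absolute log2 fold change of 1 left 2 higher and 1 lower. The length and GC correction turned IREB2 to 0.21 and STEAP3 to -0.3. STEAP3, not called, was -0.01 without a count filter and -0.03 to 0.12 without any 1 sample. SLC40A1 gave no value with the filter of 50 counts. No scaling or filter moved the median of the genes tested throughout by over 0.1, apart from the length and GC correction (-0.13).

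List counts, for genes outside the 10, moved more. Entry, reduction and export had 4 higher, but 2 without a filter, 2 with the length and GC correction and 1 to 4 without any 1 sample, with 1 when either control was left out. Ferritin chaperones had 1 lower, but 2 without a filter, 2 with the length and GC correction, 2 with the replicate block and 1 to 2 without any 1 sample, and 2 higher, but 1 to 2 without any 1 sample. The numbers shared by the labels do not state a pairing, and the deviations of same-numbered samples correlated at 0.0159. The replicate block moved no other count by over 1.5 times. Sensing and hepcidin had 1 higher, but 2 with RLE, upper quartile or the length and GC correction and 1 to 2 without any 1 sample. It had 5 lower, but 3 with upper quartile scaling, 3 with DESeq2 and 3 to 6 without any 1 sample. Without a control, or without EV replicate 1, that count was 3. With the length and GC correction, heme synthesis had 2 lower in place of 1 and cytosolic assembly 4 in place of 1 (1 to 2 without any 1 sample, 2 without EV replicate 1). Mitochondrial assembly had 4 lower, but 2 with DESeq2 and 2 to 4 without any 1 sample (2 without WFI replicate 2). Zinc transporters had 5 lower, but 3 to 6 without any 1 sample (3 without WFI replicate 2). A minimum absolute log2 fold change of 1 left, higher and lower, 1 and 3 for entry, 0 higher for ferritin chaperones, 1 lower for sensing, 2 and 0 for heme synthesis, 1 and 2 for heme breakdown, 3 and 1 for mitochondrial assembly, 0 and 0 for cytosolic assembly, 2 and 1 for the NRF2 list and 2 and 1 for zinc.

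With 2 samples a group and no record of separate cultures, the culture and the treatment cannot be told apart. Depth limits SLC40A1, HAMP, TFR2 and ALAS2. TFR2 moved from 5.38 to 8.45 without WFI replicate 2 and ALAS2 from 4.46 to 7.53 without WFI replicate 1. More genes had any count in EV (29456 and 28770) than in WFI (26258 and 26587). The part of this difference in the rises of HAMP, TFR2 and ALAS2 was not tested.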
